A study of Drosophila melanogaster with 2 samples.

Results

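The E2F, Dp and retinoblastoma family of Drosophila melanogaster has 5 members, E2f1, E2f2, Dp, Rbf and Rbf2, of the 13945 protein-coding genes in the Ensembl annotation BDGP6.54. Their binding by E2f1 itself was read from a ChIP-seq series in whole embryos aged 0 to 24 h, with 1 group (E2f1-eGFP) of 2 biological replicates. The flies carried an insertion that makes E2f1 fused to the green fluorescent protein eGFP. Chromatin was sonicated to fragments of 200 to 800 bp and precipitated with an antibody to GFP, while the antibody field of the labels names E2f1. The labels give no promoter for the insertion, nor whether the embryos also kept an untagged E2f1. Whole embryos of every stage up to 24 h were pooled, so a region does not tell in which cells or at which stage the protein sat there. A control library is named in the deposited notes as an input of the region calls, and its data were not analysed here. A region was counted for a gene if its summit lay inside the gene or within 1 kb of it. The authors' conservative set over both replicates held 7 such regions at the 5 genes among 4439 in all, and their larger set held 12 among 5167. The set of replicate 1 held 10 among 3779, and that of replicate 2 held 7 among 3280.

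E2F proteins bind DNA as a pair with Dp and switch genes needed for DNA synthesis and cell division. In the fly, E2f1 is the activating member and E2f2 a repressing one, and Dp is the partner of both. Rbf and Rbf2 are the fly retinoblastoma proteins, which bind E2F-Dp pairs and hold their target genes off until cyclin-dependent kinases release them. E2F genes are known in mammals to be targets of E2F proteins, so the family is a place to ask whether the factor occupies its own network.

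E2f1 and Dp carried all 7 conservative regions, 4 at E2f1 and 3 at Dp. The larger set added 3 regions at E2f1 and 2 at Rbf. E2f2 and Rbf2 had none in any of the 4 sets. Thus 2 of the 5 genes had a conservative region, against 27.4% of all protein-coding genes under the same rule. In the larger set 3 of 5 had one, against 30.1% of all. In replicate 1 it was 3 of 5, against 24.4%, and in replicate 2 it was 2 of 5, against 22.4%. With 5 genes these shares are counts of named genes, and no test was made on them. Under a narrower rule, with the summit at most 500 bp from a transcription start site (TSS), only Dp had a conservative region, against 17.6% of all genes. E2f1, Dp and Rbf had one in the larger set, against 19.7% of all genes, and the same 3 in replicate 1, against 15.8%. Dp alone had one in replicate 2, against 13.8% of all genes.

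E2f1 (FBgn0011766) spans 3R:21620304-21660871 on the minus strand of dm6, has 6 transcripts from 5 TSSs and is 40.6 kb long. Its 4 conservative regions were all intronic, and none had its summit within 500 bp of a TSS. The bases around the 4 summits are given because no E2F consensus was found in any of these regions. Each line holds 101 bases of the plus strand, 5′ to 3′, from the RefSeq assembly of dm6, and the capitals mark the 11 bases centred on the summit. The lines run from 3R:21627888-21627988, 3R:21635945-21636045, 3R:21641632-21641732 and 3R:21657065-21657165.
E2f1 summit 21627938: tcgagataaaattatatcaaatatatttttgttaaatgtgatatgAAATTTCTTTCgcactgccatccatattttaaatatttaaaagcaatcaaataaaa
E2f1 summit 21635995: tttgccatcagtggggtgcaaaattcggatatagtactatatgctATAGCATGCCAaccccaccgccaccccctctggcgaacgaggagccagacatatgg
E2f1 summit 21641682: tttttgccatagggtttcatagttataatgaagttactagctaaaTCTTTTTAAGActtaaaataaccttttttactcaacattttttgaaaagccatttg
E2f1 summit 21657115: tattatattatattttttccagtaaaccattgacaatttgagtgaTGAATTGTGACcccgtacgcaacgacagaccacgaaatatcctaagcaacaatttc

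The letters differ widely among these summits. G and C made up 20.8% of the bases at summit 21627938, 52.5% at summit 21635995, 25.7% at summit 21641682 and 34.7% at summit 21657115. Over the whole regions the G and C content was 26.2%, 52.9%, 32.6% and 36.3%, in the same order, and the median of all conservative regions was 37.3% with quartiles of 33.1 and 41.6%. The highest region of the gene, 164 bp wide, was thus AT-rich relative to the series, and the region at 21635995 was GC-rich. The median width of all conservative regions was 344 bp. At the locus of that highest region, the G and C content varied with the called width. It was 21.3% over 127 bp in replicate 1 and 35.5% over 304 bp in replicate 2. The hexamer TTTGAA, known as the cell cycle homology region (CHR), was in the regions at 21635995 and 21641682 on either strand. It was also in 39.5% of all conservative regions. The pentamer GAGAG, a core of GAGA factor sites, was in the region at 21635995 and in none of the other 3, against 34.2% of all conservative regions. In the promoter windows, from 250 bp before to 50 bp after a TSS, GAGAG was found 7 times at the TSS at 21632693, 4 times at 21633073 and 7 times at 21638494, counting overlaps on both strands, and not at the distal pair. Of all 19607 annotated promoter windows 33.1% held it at least once.

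The highest region at E2f1 was 3R:21627862-21628025, with a height of 305 in the conservative set, rank 481 of 4439. Height is the authors' score for a region and has no stated unit, and it is used here to rank regions within a list. Its summit lay 4755 bp downstream of the TSS at 21632693. The region had a height of 169 in replicate 1 and 140 in replicate 2, each from that library's own ranked list. Its global irreproducible discovery rate (IDR), the authors' estimate of how poorly a region recurs between paired inputs, was at the ceiling of their scale, a −log10 of 5, in all 4 lists. It was the E2f1 region that stood highest in both libraries.

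The other 3 conservative regions at E2f1 were lower. The region 3R:21656943-21657286, 3317 bp downstream of the TSS at 21660432, had a height of 151 (rank 1509) and measured 94.7 in replicate 1 and 55.6 in replicate 2. The region 3R:21641510-21641853, upstream of the TSS at 21638494 (summit at -3188 bp from it), had a height of 146 (rank 1594) and measured 89.6 in replicate 1 and 64.3 in replicate 2. The region 3R:21635823-21636166, 2499 bp downstream of the same TSS, had a height of 86.2 (rank 3119) and measured 55.7 in replicate 1 and 34.4 in replicate 2. The first 2 of these were in the sets of both replicates. The last was in the set of replicate 1 only, since its −log10 IDR in replicate 2 was 1.74, under the value of 2 that an IDR of 0.01 gives.

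At the E2f1 start sites the replicates differed. A region over the most distal TSS, 3R:21660608-21660951, lay in the 5′ UTR, 91 bp inside the gene from the TSS at 21660871. It had a height of 98.5 in the larger set and 65.9 in the set of replicate 1. No candidate of replicate 2 overlapped it, and none did in the conservative ranked list. Near the inner TSSs, 2 candidates passed an IDR of 0.01 in the larger ranked list without being in the larger set. One was 3R:21633329-21633672, with a height of 79.2, its summit at -428 bp from the TSS at 21633073. The other was 3R:21632433-21632776, with a height of 76.7, its summit 88 bp downstream of the TSS at 21632693. In the separate replicates these loci measured 32.7 and 52.7 in replicate 1 and 27.0 and 17.6 in replicate 2, all with an IDR over 0.01. At the middle TSS, 21638494, the strongest candidate within 500 bp had a height of 33.6 and a −log10 IDR of 0.318 in the larger list.

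**Figure D1:**
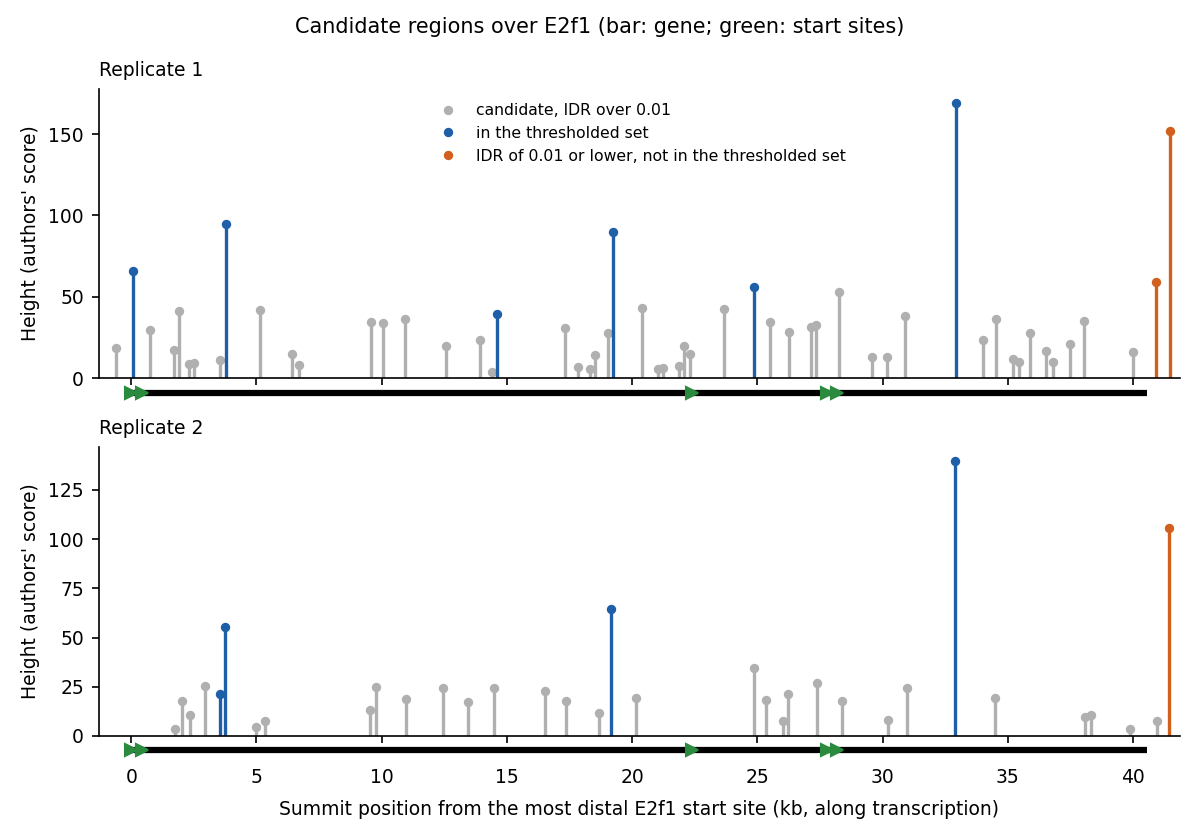
Height (authors' score, y axis) of every candidate region within 1 kb of E2f1 in replicate 1 (top) and replicate 2 (bottom), by summit position in kb from the most distal TSS (x axis), with blue for regions in the thresholded set, orange for regions with an IDR of 0.01 or lower outside that set and grey for the rest. The intronic region of height 169 in replicate 1 and 140 in replicate 2 stands highest inside the gene in both, and the region of 65.9 at the distal TSS has no counterpart in replicate 2.

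Outside the conservative set, 4 more regions at E2f1 were in 1 of the other sets. The larger set held 3R:21629789-21630132, intronic with a height of 73.9, and 3R:21626187-21626530, with a height of 51.8 and its summit in a coding exon. Replicate 1 held 3R:21646091-21646426, with a height of 39.5, whose summit lay 42 bp from the nested gene lncRNA:CR46057. Replicate 2 held 3R:21657166-21657469, with a height of 21.4, which overlapped its own region of height 55.6. These were among the lower regions of their sets, with ranks of 3917 and 4835 of 5167, 3504 of 3779 and 3194 of 3280.

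The E2f1 gene also hosts the microRNA genes mir-11 and mir-998 in an intron. No set held a region with its summit within 1 kb of either. The nearest conservative summit was 5367 bp from mir-11 and 5917 bp from mir-998. The strongest candidates there had heights of up to 47.3 and a −log10 IDR of at most 0.872.

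The length of E2f1 bears on its count of regions. Among the 873 protein-coding genes of 0.5 to 2 times its length, 56.6% had at least 1 conservative region, and 11.0% had 4 or more, as E2f1 did. In the larger set 2.86% of them had 7 or more, as E2f1 did, and in replicate 1 2.52% had 6 or more. In replicate 2 5.96% had 4 or more. Candidates of any IDR were dense along the gene, with 12.7 per 10 kb in replicate 1 and 7.99 in replicate 2, at percentiles of 99.8 and 88.0 among those 873 genes. In the conservative list the density was 11.8 per 10 kb, at a percentile of 69.99. The gene itself held 51 candidates in replicate 1, against 42 and 37 in flanks of the same length on its sides. In replicate 2 it held 32, against 30 and 31 in those flanks. The labels do not say whether the insertion adds a copy of the locus, so whether copy number moved these densities was not tested.

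A region beside E2f1 was absent from every thresholded set although it reached the ceiling of the IDR scale in all 4 ranked lists. It was 3R:21619236-21619579, with a height of 249.5 in the conservative list and of 152 in replicate 1 and 106 in replicate 2. Its height ranked 730 among the 4542 candidates of that list with an IDR of 0.01 or lower. Its summit lay 896 bp past the 3′ end of E2f1 and 87 bp upstream of a TSS of InR, the insulin receptor gene. Such gaps were few, 103 of those 4542 candidates (2.27%), and 59.2% of the 103 were on 3R, the arm of E2f1, against 24.1% of all 4542. The deposited notes list a further input to the thresholded sets whose nature is not given in the sources used here.

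E2f2 (FBgn0024371), at 2L:21154293-21156749 on the minus strand, had no region in any set. Its strongest candidate, by the lowest IDR, measured 23.3 in replicate 1, with a −log10 IDR of 0.201. It spanned 2L:21156080-21156415, with its summit 16 bp upstream of the TSS at 21156232. Replicate 2 had 1 candidate there, with a height of 9.07 and a −log10 IDR of 0.044, whose nearest TSS was that of Mpp6. Under the distance of 2 kb E2f2 gained a conservative region, 1902 bp from the gene at the promoter of Coq3, with a height of 163. At E2f2 itself neither library gave a region that passed, and the heights were under the lowest of the 4380 conservative regions that had a candidate in both libraries.

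Dp (FBgn0011763) spans 2R:13222433-13228202 on the plus strand and has 3 TSSs. It held the highest regions of the family, and all 3 were at its first 2 TSSs and in both replicates. The region 2R:13223240-13223498 had a height of 443 in the conservative set, rank 237, with its summit 196 bp upstream of the TSS at 13223591. It measured 242 in replicate 1 and 216 in replicate 2. The region 2R:13222285-13222496, with its summit 20 bp upstream of the TSS at 13222433, had a height of 403, rank 281. It measured 263 in replicate 1 and 143 in replicate 2. The region 2R:13223921-13224011, with its summit 412 bp downstream of the second TSS, had a height of 228, rank 810. It measured 136 in replicate 1 and 84.5 in replicate 2. The −log10 IDR was 5 for all 3 in the conservative set, and the order of the upper 2 was reversed between the libraries. At the third TSS, 13225322, the conservative list held only a candidate of height 31.2 with a −log10 IDR of 0.18.

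The E2F consensus was searched as TTCCCGC or TTCGCGC or TTGCCGC or TTGGCGC on both strands over each whole region. It was in 2 of the 7 conservative regions of the family, both at Dp, against 14.8% of all 4439. In the region at the first Dp TSS the match was TTGGCGC at bases 13222441 to 13222447, its centre 31 bp from the summit. In the region at the second TSS it was again TTGGCGC, at bases 13223476 to 13223482, with its centre 84 bp from the summit. The narrower regions that the separate replicates gave at the second TSS did not reach that match. Among all 19607 promoter windows 14.8% held the consensus. Of the 12 TSSs of the family, 4 did, 2 of Dp, 1 of E2f1 and 1 of Rbf2. A match is a string of letters in the window and no evidence of a site in use.

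**Figure D2:**
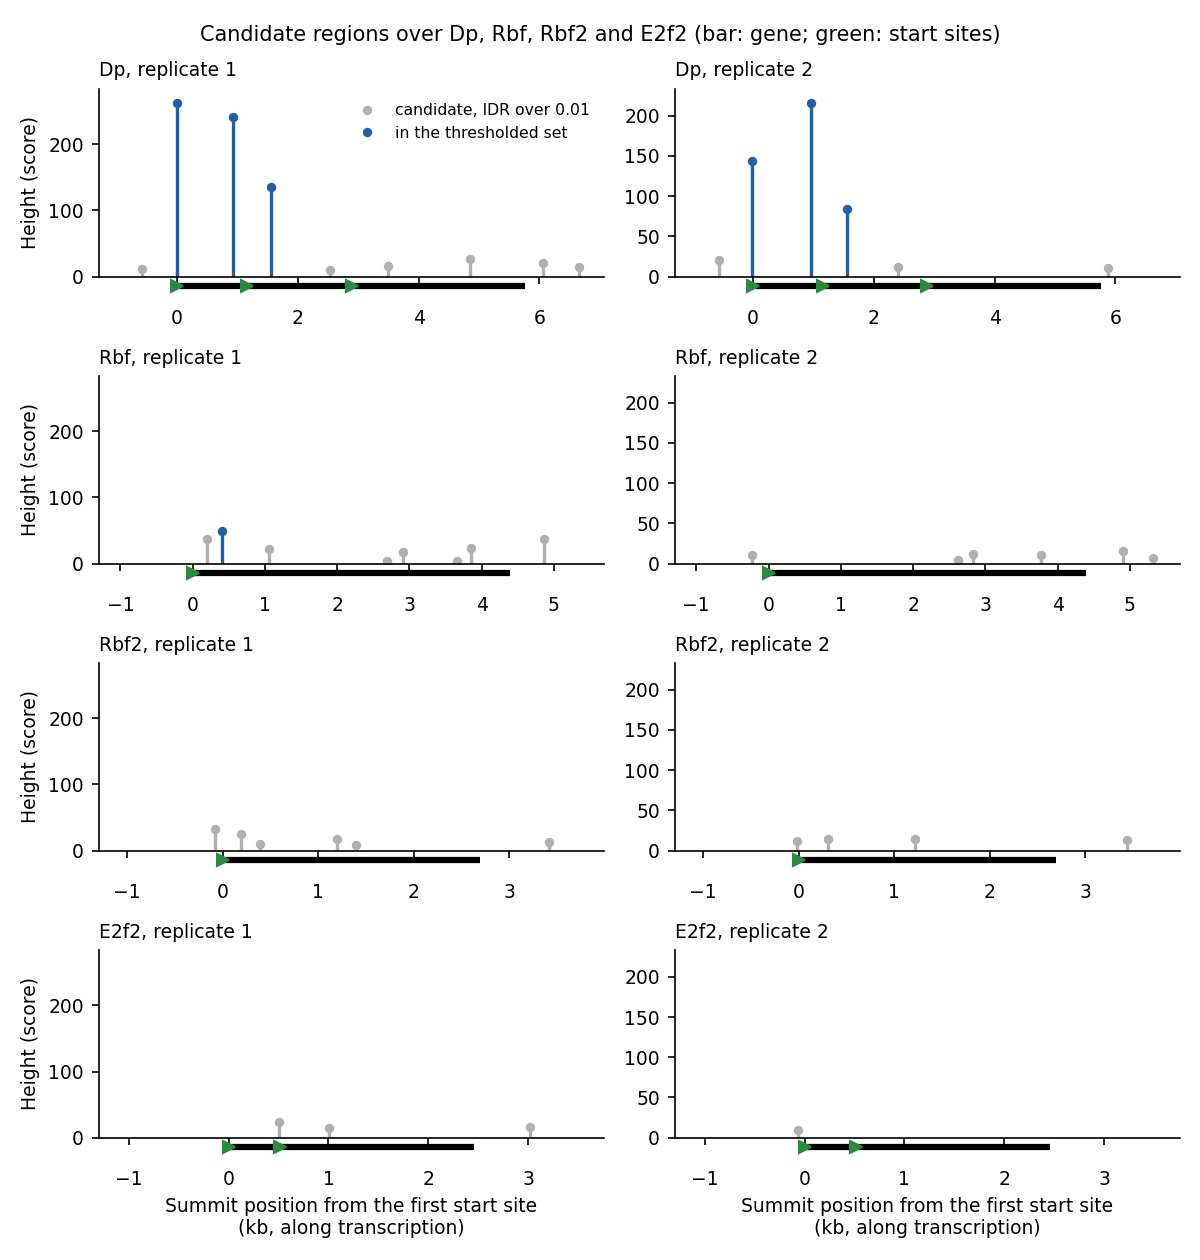
Height (authors' score, y axis, 1 scale per column) of every candidate region within 1 kb of Dp, Rbf, Rbf2 and E2f2 in replicate 1 (left) and replicate 2 (right), by summit position in kb from the first TSS (x axis), with blue for regions in the thresholded set and grey for the rest. The 3 Dp regions stand in both columns, Rbf has a blue region of 48.9 in replicate 1 only, and Rbf2 and E2f2 show grey candidates only.

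Few genes of the length of Dp had as many regions. Among the 3781 protein-coding genes of 0.5 to 2 times its length, 34.9% had a conservative region and 1.96% had 3 or more, as Dp did. The share with 3 or more was 2.75% in the larger set, 1.51% in replicate 1 and 0.608% in replicate 2.

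The 7 conservative regions of the family were higher in replicate 1 than in replicate 2, as were most regions of the series. The ratio of the heights, replicate 1 over replicate 2, was 1.12, 1.83 and 1.61 at Dp in descending order of conservative height. It was 1.21, 1.71, 1.39 and 1.62 at E2f1, in the same order. The median of all 4380 conservative regions with a candidate in both libraries was 1.24, with quartiles of 1.02 and 1.56, and 5% of regions exceeded 2.29. All 7 ratios lay under that value, while their median of 1.61 lay above the upper quartile of all regions. Of the 10 family regions in the set of replicate 1, 6 shared at least 1 bp with a replicate 2 region, against 67.5% of all regions. All 7 of replicate 2 shared bases with one of replicate 1, against 74.9% of all, and 2 of these met the same replicate 1 region. The 4 without a counterpart in the replicate 2 set were those at the distal TSS, at 21635995 and beside lncRNA:CR46057 in E2f1, and the one at Rbf. Those at 21635995 and beside lncRNA:CR46057 overlapped replicate 2 candidates outside that set, with heights of 34.4 and 24.3. With a reciprocal overlap of 50%, 5 of 10 in replicate 1 and 5 of 7 in replicate 2 were shared. The shares of all regions were then 58.1 and 66.4%. With summits within 100 bp, 6 of 10 and 6 of 7 were shared, against 63.1 and 72.7% of all. Counting any candidate in the ranked list of the other replicate, 8 of 10 and 7 of 7 were shared, against 92.9 and 98.2% of all.

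**Figure D3:**
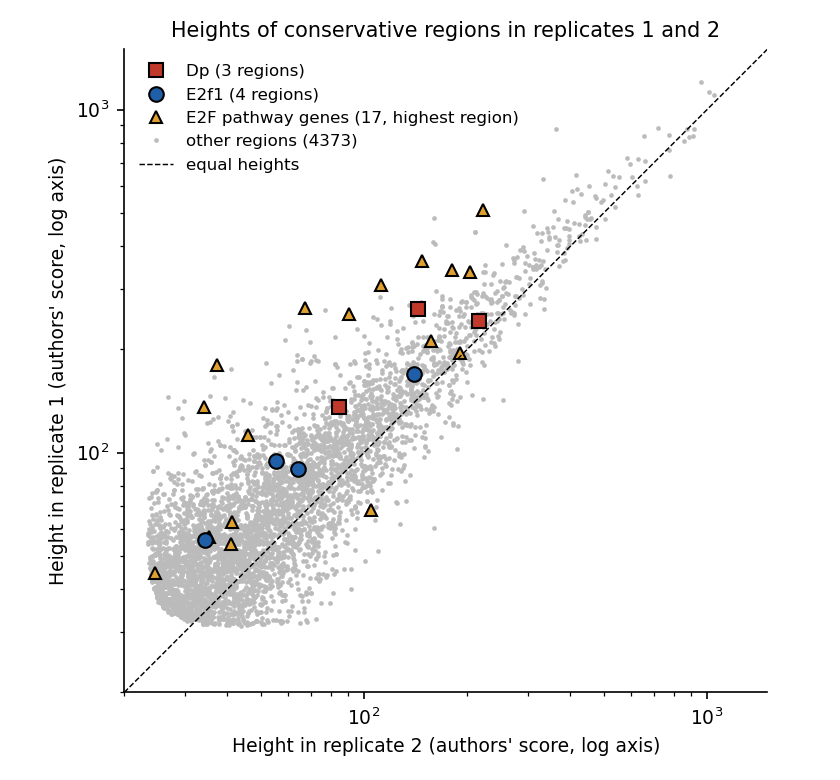
Height of each conservative region in replicate 1 (y axis) against replicate 2 (x axis), as authors' scores on log axes, with red squares for Dp, blue circles for E2f1, orange triangles for the highest region of 17 other E2F pathway genes and grey points for other regions. The 7 family regions lie within the grey cloud at ratios of 1.12 to 1.83, while several triangles lie at its upper edge, up to a ratio of 4.82.

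Rbf (FBgn0015799), at X:797090-801479 on the minus strand, was called in the larger set and in replicate 1 only. The 3 E2F consensus matches under these regions are given with 10 bases on each side, from the RefSeq assembly of dm6, each 5′ to 3′ on the strand that carries the match, with the match in capitals. All lie in the 5′ UTR. The first and second lie at X:800976-801002 and X:801043-801069 on the plus strand, and the third at X:801270-801296 on the minus strand.
Rbf 800986: tatgctgcgcTTGCCGCcgcgctcctc
Rbf 801053: ataatgaagtTTCCCGCcgaaatgatt
Rbf 801280: ctagtcaagtTTCCCGCgttttccatg

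The larger region at Rbf, X:800901-801244, had its summit 406 bp downstream of the TSS at 801479. Its height was 58.0 in the larger set, rank 4722 of 5167, and 48.9 in the set of replicate 1, rank 3248 of 3779. The centres of the matches at 800986 and 801053 lay 84 and 17 bp from that summit. The second region, X:801106-801449, had a height of 39.5 in the larger set, rank 4859, and its summit lay 5 bp from the centre of the match at 801280. No candidate of replicate 2 overlapped either region. The best candidate of replicate 2 within 500 bp of the TSS had a height of 10.5 and a −log10 IDR of 0.044. In the conservative list the first region had a −log10 IDR of 0.155, against 2.51 in the larger list. The nearest conservative region was 4012 bp from the gene, at CG16989, with a height of 320. The call at Rbf thus rested on replicate 1 and on the list behind the larger set.

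Rbf2 (FBgn0038390), at 3R:15965446-15968138 on the plus strand, had no region in any set. Its strongest candidate in replicate 1, 3R:15965196-15965531, had a height of 31.9 and a −log10 IDR of 1.68, and its summit lay 82 bp upstream of the Rbf2 TSS and 13 bp from that of the neighbour CG32856. In replicate 2 the candidate with the lowest IDR measured 11.7, with a −log10 IDR of 0.38. The highest Rbf2 candidate of the conservative and larger lists, 3R:15965383-15965726, had a height of 43.9 and a −log10 IDR of 0.206 and 0.242. Its summit lay 109 bp downstream of the Rbf2 TSS and 63 bp from the centre of an E2F consensus match. The Rbf2 promoter window holds the E2F consensus and the DNA replication-related element (DRE, TATCGATA, a palindrome read on both strands), which was in 7.98% of the 19607 promoter windows. The letters of the E2F match, with 10 bases on each side and the match in capitals, lie at 3R:15965479-15965505 on the plus strand, in the 5′ UTR.
Rbf2 15965489: atcgaaatcaTTCGCGCctttctgaaa

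Consensus letters also occurred near E2f1 and E2f2 start sites, further inside an E2f1 intron and beside InR. They are given in the same way, to set beside the Rbf matches. The E2f1 matches lie at 3R:21633533-21633559, in the candidate at -428 bp from the TSS at 21633073, and at 3R:21633022-21633048 in the 5′ UTR from that TSS, both on the minus strand. Another lies in the larger-set region of height 73.9, at 3R:21629793-21629819 on the plus strand, 155 bp from its summit. The match in the candidate beside InR lies at 3R:21619271-21619297 on the minus strand, 124 bp from the summit. The E2f2 match lies at 2L:21156163-21156189 on the plus strand, 72 bp from the summit of the candidate of height 23.3. The centre of that match is 56 bp downstream of the TSS at 21156232, outside the promoter window.
E2f1 21633543: tgctcagctgTTGCCGCtaattcgctg
E2f1 21633032: gacgctgctgTTGCCGCtgccgccccc
E2f1 21629803: tcaatcaacaTTGGCGCaacagagcgg
InR side 21619281: gttgagatcgTTGCCGCggtcgccgtg
E2f2 21156173: aatacgaatgTTGGCGCtaggtttgct

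The partners and regulators of the family were read by the same rule from 4 lists of 27 genes. Of 5 genes for the kinases that act on Rbf and their inhibitor, 4 had a conservative region. They were CycE, a cyclin of S-phase entry (342), its kinase Cdk2 (339), the Cdk inhibitor dap (222) and Cdk4 (92.9), while CycD, the partner of Cdk4, had none in any set. With the summit at most 500 bp from a TSS, only 1 of the 5 had a conservative region, against 17.6% of all genes. That count was 3 in the larger set (19.7% of all genes), 2 in replicate 1 (15.8%) and 2 in replicate 2 (13.8%). Of 13 genes known from the literature as E2F targets, 11 had a conservative region inside the gene or within 1 kb. The highest were PolA1, a DNA polymerase alpha subunit (736), RnrS, a ribonucleotide reductase subunit (559), and dpa, a subunit of the Mcm helicase (527). PolA1 begins 5691 bp past the distal end of E2f1. RnrL had a region in replicate 1 only (71.5), and rpr none in any set. The region counted for stg (73.8) was in the conservative set only, with SP1029 as the gene with the nearest TSS. With the summit at most 500 bp from a TSS, 9 of the 13 targets had a conservative region, against 17.6% of all genes.

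In the other lists the counts were lower. Of 7 Myb-MuvB genes, which form a complex with E2F and Rbf proteins, 2 had a conservative region. Their heights were 385 at lin-52, with CG15771 as the gene with the nearest TSS, and 90.0 at mip130, with Edem1 as the nearest. Caf1-55 had one in replicate 1 only (49.0). Of 4 genes of E2f1 turnover in S phase, PCNA (170) and l(2)dtl (99.5) had one, pic only in the larger set (62.9) and Cul4 none. CycE and PCNA stand in 2 lists each. The counts with a region in the larger set, replicate 1 and replicate 2 were 4, 4 and 4 for the Rbf kinases and inhibitor, 10, 11 and 10 for the targets, 2, 3 and 1 for Myb-MuvB and 3, 2 and 1 for turnover. The share of all protein-coding genes was 27.4% in the conservative set, 30.1% in the larger set, 24.4% in replicate 1 and 22.4% in replicate 2. Within 500 bp of a TSS, 1 of the 7 Myb-MuvB genes and 2 of the 4 turnover genes had a conservative summit, against 17.6% of all genes. With the summit required inside the gene, 5 of the 27 pathway genes had a conservative region, against 17 of 27 under the 1 kb rule, and the share of all genes was 11.8%.

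**Figure D4:**
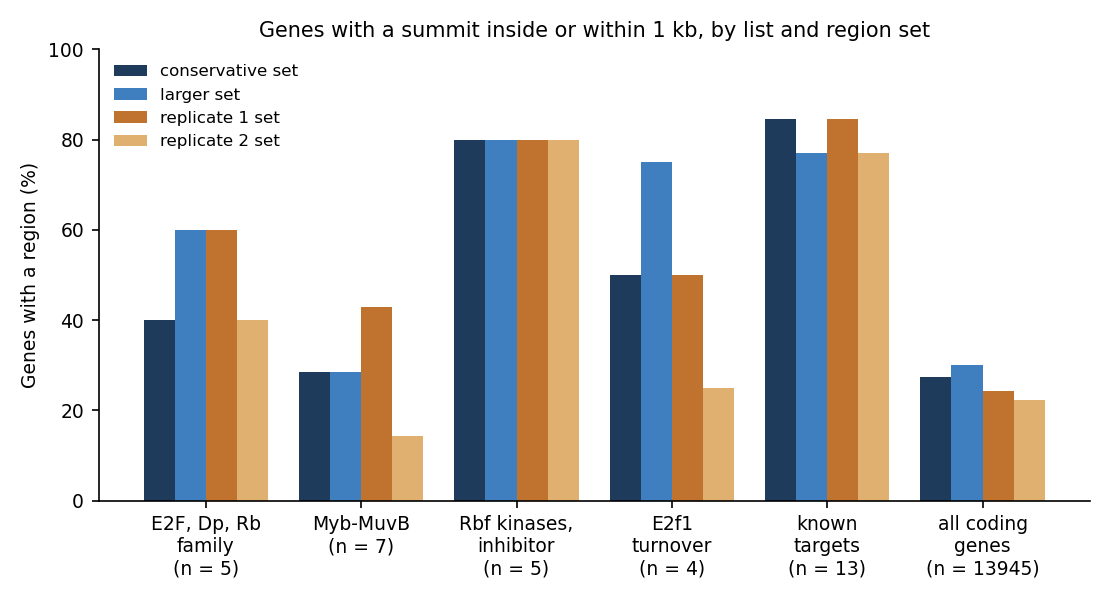
Percent of genes (y axis) with a region summit inside the gene or within 1 kb, for the E2F, Dp and retinoblastoma family, 4 lists of pathway genes and all protein-coding genes (x axis), in the conservative, larger, replicate 1 and replicate 2 sets (bars). The family bars stand for 2, 3, 3 and 2 of 5 genes, and the bars of all genes lie between 22.4 and 30.1%.

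At several pathway genes the heights in the libraries lay further apart than at the family, a description on which no test was made. At dap the highest conservative region measured 180 in replicate 1 and 37.3 in replicate 2, a ratio of 4.82. The ratio was 3.97 at PCNA, 3.94 at CycE and 2.81 at Cdk2. At hid, a cell death gene, it was 0.649. Of the 17 pathway genes with a conservative region, 7 had a ratio above the 95th percentile of all conservative regions, and none of the 7 family regions did. Over all conservative regions the median ratio was 1.36 for the 642 with an E2F consensus and 1.22 for the 3738 without one. With 2 libraries, biological and technical differences between them cannot be told apart.

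Genes with a pattern like that of E2f1 or Dp were sought by the percentile of the highest candidate height in each of the 4 ranked lists. The 4 lists come from 2 libraries. The nearest to E2f1 among 13945 protein-coding genes were gpp and dpr14, with summed differences of 0.0482 and 0.058 percentile points. The nearest to Dp were CG4658 and CG4709, with 0.0714 points each. Both had the same percentile in each of the 4 lists, and whether 1 region was counted for both was not examined. A total of 492 genes lay within 1 point of E2f1 and 576 within 1 point of Dp, so these genes are the nearest of many.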

How the data were processed

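Per the labels, chromatin of 2 biological replicates of 1 group was precipitated and sequenced, with dm6 as the build. The sources used here name neither aligner nor peak caller. The deposited files hold a ranked list and a thresholded set per replicate, and 2 of each over both replicates. The height is a score of the authors with no stated rescaling between libraries, and the −log10 of the global IDR is also the authors' value, capped at 5. All regions of the thresholded sets had an IDR of 0.01 or lower. The files hold no read counts, so depth and its precision are unknown. Per-replicate heights are those of the highest overlapping region in each replicate's own list.

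Summits were written 1-based and joined to Ensembl BDGP6.54 (release 115), and sequence was read from the RefSeq copy of dm6. Motif matches are on both strands. Python 3.11.15, numpy 2.4.6, pandas 2.3.3 and matplotlib 3.10.9 were used, and the counting was tested on simulated data. No test was made, since there is 1 group. The genes, lists and rules were chosen with earlier results of these data known. All family genes are named with each region in a thresholded set, those without one with their strongest candidate, the 3 highest genes of each list, and the 2 genes of most like pattern; other pathway genes were named after their values were seen. Alternatives changed the set, the distances, the overlap rule, the motif window, the background genes and the IDR (0.001).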

Additional observations from a re-analysis of the deposited data

How the results depend on the processing

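Of 41 alternative values, 34 stayed within 1.5 times their main count. The alternatives include a background of all annotated genes, which could not move a count. The number of regions at the family was 7, and 12 in the larger set. The number of family genes with a region was 2, and lay between 2 and 3 under its 8 alternatives. Rbf was added in the larger set and in replicate 1 alone, and E2f2 at a distance of 2 kb. The number of family genes with a promoter summit was 1, and 3 in the larger set; leaving out either replicate gave 1 to 3, with 3 in replicate 1 alone. The E2F consensus was in 2 of 7 family regions (14.8% of all conservative regions) and in 5 of 12 in the larger set (16.1% of all its regions). It was in 1 of 7 with a window of 50 bp each side of the summit (4.17% of all). In replicate 1 alone it was in 2 of 10 (17.0% of all its regions), at the first Dp TSS and at Rbf. In replicate 2 alone it was in 1 of 7 (11.8% of all its regions), at the first Dp TSS. Of the 27 pathway genes, 17 had a region (27.4% of all genes), and 5 had one with the summit inside the gene (11.8% of all genes). The cause of these moves was not tested. A narrower gene span or motif window can only lower a count or leave it as it was. No paired analysis was possible because the series has 1 group and no comparison between groups. Depth is unknown, so a gene without a region was not called at this unknown depth.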

Other observations

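Regions that passed an IDR of 0.01 but were absent from the thresholded sets had a higher share on 3R than all passing candidates in each of the 4 lists, with no test made. In replicate 1 they were 112 of 3891 candidates (2.88%), with 64 on 3R, and in replicate 2 they were 107 of 3387 (3.16%), with 54 on 3R. In the larger list they were 136 of 5303, with 75 on 3R. The share of all passing candidates on 3R was 24.1% in the conservative list, 24.3% in the larger list, 24.1% in replicate 1 and 23.5% in replicate 2. Their median height was 137 in the conservative list, against 113 for the regions kept, 105 in the larger list, against 102, 75.8 in replicate 1, against 75.4, and 61.0 in replicate 2, against 65.1. At E2f1 they were the region beside InR in all 4 lists, 2 candidates near the inner TSSs in the larger list, and 3R:21619789-21620124 in replicate 1, with a height of 59.2 there and 7.71 in replicate 2.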
